A study of Mus musculus with 12 samples.

Results

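Adipocytes are the main cells of the mammary fat pad, in which these tumours were grown, and 10 genes that mark them were followed across 12 tumours. The genes were Adipoq, Retn, Lep and Cfd, which encode secreted proteins, Plin1, Cidea and Lipe of the lipid droplet, Lpl and Fabp4 of fatty acid uptake and transport, and the transcription factor gene Pparg. They were taken by symbol from the 39017 genes of the count table, each symbol matched 1 row, and all 10 passed the filter on low counts. The tumours were grown from the ErbB2-positive mouse breast cancer line NIC, which lacks p66ShcA, the longest protein isoform of the adaptor gene Shc1. Female FVB/N hosts aged 8 to 12 weeks received 250000 cells each, mixed with Matrigel, in the fourth mammary fat pad. The 4 groups held 3 tumours each and were p66High aggressive, p66Low aggressive, p66High parental and p66Low parental. The p66High cells constitutively overexpressed p66ShcA. How the p66Low cells were made, and whether a line was a clone or a pool, is not given in the sources used here. The aggressive cells had gone through 2 rounds of selection by growth in the fat pad and had been returned to culture, and the submitters describe them as faster growing and more metastatic than the parental cells. All groups shared the NIC line and the fat pad site. In both p66High groups, the titles of replicates 1 and 2 carry the same number and differ in the letter L or R, so whether the 3 tumours of such a group came from 3 mice or from 2 is not known. RNA was measured in bulk tumour, so every value mixes tumour cells with host cells, and fewer adipocytes and less RNA per adipocyte cannot be told apart.

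White adipocytes store triglyceride in a large droplet and release it as fatty acids when energy is needed. PPAR gamma and the C/EBP factors drive their formation and keep their genes active. Mature cells coat the droplet with perilipin 1 and secrete hormones such as adiponectin and leptin. In the mammary gland these cells surround the ducts, and tumours that invade the fat pad are often bordered by them.

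The libraries held 17.4 to 76.1 M counts (M, mega). Levels are in CPM, counts per 1 M of the library size after TMM scaling (trimmed mean of M-values). Shc1 followed the labels, at 223 to 774 CPM in the 6 p66High tumours and 59.0 to 69.9 CPM in the 6 p66Low tumours. The summed level of 10 lymph node and B cell genes was 161 and 226 CPM in p66Low aggressive replicates 1 and 2 and 50.2 CPM in p66High parental replicate 3, while it lay between 0.364 and 2.07 CPM in the 9 remaining libraries. Calls, correlations and spreads were therefore also computed without these 3 libraries. Skeletal muscle genes (12 listed) summed to between 0.786 and 2.49 CPM in every tumour.

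The 250 bases before the start of transcription are shown for the 4 genes that later moved most closely together, Adipoq and the 3 most like it. The strand is that of the gene, the sequences are from RefSeq (GRCm38.p6), and capitals mark the motif matches named below. The Adipoq window was at chr16:23146286-23146535 (plus strand), Plin1 at chr7:79732777-79733026 (minus strand), Lep at chr6:29059971-29060220 (plus strand) and Cfd at chr10:79890603-79890852 (plus strand).
Adipoq: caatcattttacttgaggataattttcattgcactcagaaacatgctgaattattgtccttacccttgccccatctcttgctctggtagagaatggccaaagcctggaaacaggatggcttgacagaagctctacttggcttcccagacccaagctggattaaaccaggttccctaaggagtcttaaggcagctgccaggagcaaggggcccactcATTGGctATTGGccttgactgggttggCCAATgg
Plin1: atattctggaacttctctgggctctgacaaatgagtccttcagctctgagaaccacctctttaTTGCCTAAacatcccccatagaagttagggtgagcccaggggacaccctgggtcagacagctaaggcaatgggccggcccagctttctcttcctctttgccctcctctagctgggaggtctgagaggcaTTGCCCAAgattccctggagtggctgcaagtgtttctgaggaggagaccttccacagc
Lep: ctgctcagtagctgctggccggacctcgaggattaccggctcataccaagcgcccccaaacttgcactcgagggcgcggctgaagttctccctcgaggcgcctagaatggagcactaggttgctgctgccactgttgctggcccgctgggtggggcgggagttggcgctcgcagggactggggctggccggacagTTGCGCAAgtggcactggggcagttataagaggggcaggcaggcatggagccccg
Cfd: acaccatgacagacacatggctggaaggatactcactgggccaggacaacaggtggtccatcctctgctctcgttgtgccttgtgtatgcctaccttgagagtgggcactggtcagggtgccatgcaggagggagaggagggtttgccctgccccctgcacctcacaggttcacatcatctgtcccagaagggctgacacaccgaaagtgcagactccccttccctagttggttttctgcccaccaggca

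A total of 5 motifs were searched on both strands: CCAAT, the C/EBP consensus TTGCNNAA, the direct repeat bound by PPAR gamma with RXR, which is 2 AGGTCA units with 1 base between them, the single unit AGGTCA, which lies within the repeat, and TATAAA. The Adipoq window held CCAAT at 3 places, starting at -34, -27 and -7 from the start of transcription, the first pair on the other strand and so written as ATTGG. The Plin1 window held TTGCNNAA at -187 and -58, and the Lep window held it once, at -55, where it reads the same on both strands. The Cfd window held none of the motifs. Over 32851 windows of the same length, 33.9% held CCAAT, 9.56% held TTGCNNAA, 14.0% held AGGTCA, 12.4% held TATAAA and 0.0335% held the direct repeat, which was in none of the 10 windows found for 7 of the genes. These matches describe letters only and say nothing of binding. Lpl, Fabp4 and Cidea were not among those searched.

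Pparg, the factor that switches on the adipocyte programme, was at 2.08, 0.943 and 0.561 CPM in p66High aggressive tumours and 7.97, 4.13 and 1.08 CPM in p66Low aggressive tumours. The p66High parental tumours had 6.16, 4.96 and 2.97 CPM of Pparg and the p66Low parental tumours 2.51, 0.731 and 1.46 CPM. The p66High aggressive tumours all lay below the p66High parental ones, while the p66Low aggressive tumours spanned nearly the whole range.

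Adipoq encodes adiponectin, a hormone made almost only by adipocytes, and was at 4.70, 1.02 and 0 CPM in p66High aggressive tumours and 24.9, 12.4 and 1.08 CPM in p66Low aggressive tumours. The p66High parental tumours had 25.2, 29.0 and 8.25 CPM and the p66Low parental tumours 10.4, 0.487 and 1.87 CPM. The highest values thus occurred in p66Low aggressive replicates 1 and 2 and in p66High parental replicates 1 and 2. At 10.4 CPM, p66Low parental replicate 1 was above p66High parental replicate 3, at 8.25 CPM. The lowest tumour, p66High aggressive replicate 3, had no Adipoq read. Lep, the gene of the satiety hormone leptin, was at 2.92, 0.393 and 0 CPM in p66High aggressive, 6.77, 5.36 and 0.571 CPM in p66Low aggressive, 13.6, 11.4 and 5.38 CPM in p66High parental, and 4.24, 0.406 and 1.20 CPM in p66Low parental tumours. Lep stood above every p66Low parental tumour in all 3 p66High parental tumours. Retn, the gene of resistin, which in mice is made by adipocytes, was at 0.254, 0.0786 and 0 CPM in p66High aggressive, 4.90, 2.68 and 0.186 CPM in p66Low aggressive, 5.12, 5.77 and 2.02 CPM in p66High parental, and 1.86, 0.0812 and 0.312 CPM in p66Low parental tumours. Retn was near 0 in all p66High aggressive tumours, and only p66Low aggressive replicate 3 and p66Low parental replicates 2 and 3 came near them. Cfd, which encodes complement factor D (adipsin), was at 26.5, 3.93 and 0.0863 CPM in p66High aggressive, 111, 72.6 and 4.72 CPM in p66Low aggressive, 75.9, 66.2 and 34.4 CPM in p66High parental, and 52.1, 1.06 and 6.47 CPM in p66Low parental tumours. Its spread within groups was the broadest of the 10 genes, and every group other than p66High parental held both a high and a low tumour.

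Plin1, the coat protein of the adipocyte droplet, was at 5.99, 1.14 and 0.0863 CPM in p66High aggressive, 21.3, 12.6 and 1.399 CPM in p66Low aggressive, 21.9, 17.9 and 7.47 CPM in p66High parental, and 8.15, 0.690 and 2.65 CPM in p66Low parental tumours. It followed the order of Adipoq closely. Lipe, the gene of hormone-sensitive lipase, which cuts diglyceride during fat release and is also found outside fat, was at 9.54, 7.74 and 6.90 CPM in p66High aggressive, 20.7, 15.6 and 9.76 CPM in p66Low aggressive, 19.2, 13.3 and 9.86 CPM in p66High parental, and 15.1, 7.79 and 11.6 CPM in p66Low parental tumours. Its highest level was 3.00 times its lowest. Cidea, a droplet protein of brown fat that is also made by mammary epithelium in lactation, was at 0.711, 0.707 and 0.733 CPM in p66High aggressive, 2.40, 0.867 and 0.771 CPM in p66Low aggressive, 2.59, 2.88 and 1.76 CPM in p66High parental, and 0.594, 1.38 and 0.754 CPM in p66Low parental tumours. It was nearly flat among the p66High aggressive tumours, in which Adipoq, Plin1 and Lep spread widely.

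Lpl, the gene of lipoprotein lipase, which frees fatty acids from blood lipoproteins and is also made by macrophages, was at 17.2, 8.33 and 6.82 CPM in p66High aggressive, 46.5, 49.4 and 9.86 CPM in p66Low aggressive, 61.9, 66.2 and 29.4 CPM in p66High parental, and 30.5, 13.4 and 19.1 CPM in p66Low parental tumours. Lpl separated p66High aggressive from p66High parental tumours but not p66Low aggressive from p66Low parental ones. Fabp4, the fatty acid carrier of adipocytes that endothelium and macrophages also make, was at 64.9, 36.3 and 7.94 CPM in p66High aggressive, 126, 67.7 and 20.5 CPM in p66Low aggressive, 163, 144 and 57.5 CPM in p66High parental, and 67.5, 14.9 and 35.1 CPM in p66Low parental tumours. All 4 of its groups overlapped. Per kilobase of the principal transcript, the mean level over the 12 tumours was highest for Fabp4 (74.9 CPM per kb) and Cfd (41.1), followed by Adipoq (7.69) and Lpl (7.26), and was between 1.21 and 3.30 CPM per kb for the other 6 genes.

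Summed over the 10 genes, the level was 135, 60.6 and 23.1 CPM in p66High aggressive tumours (72.8 ± 56.9, SD, n = 3) and 372, 243 and 49.9 CPM in p66Low aggressive tumours (222 ± 162, SD, n = 3). The sum reached 395, 361 and 159 CPM in p66High parental tumours (305 ± 128, SD, n = 3) and 193, 40.8 and 80.6 CPM in p66Low parental tumours (105 ± 78.9, SD, n = 3). No p66High aggressive tumour reached the lowest p66High parental one, and every other pair of groups overlapped. The p66Low aggressive mean rested on replicates 1 and 2, which held lymph node genes, and replicate 3 alone was at 49.9 CPM. When replicate 1 of the group was left out, the mean was 41.7 CPM in p66High aggressive, 145 CPM in p66Low aggressive and 60.8 CPM in p66Low parental tumours.

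**Figure D1:**
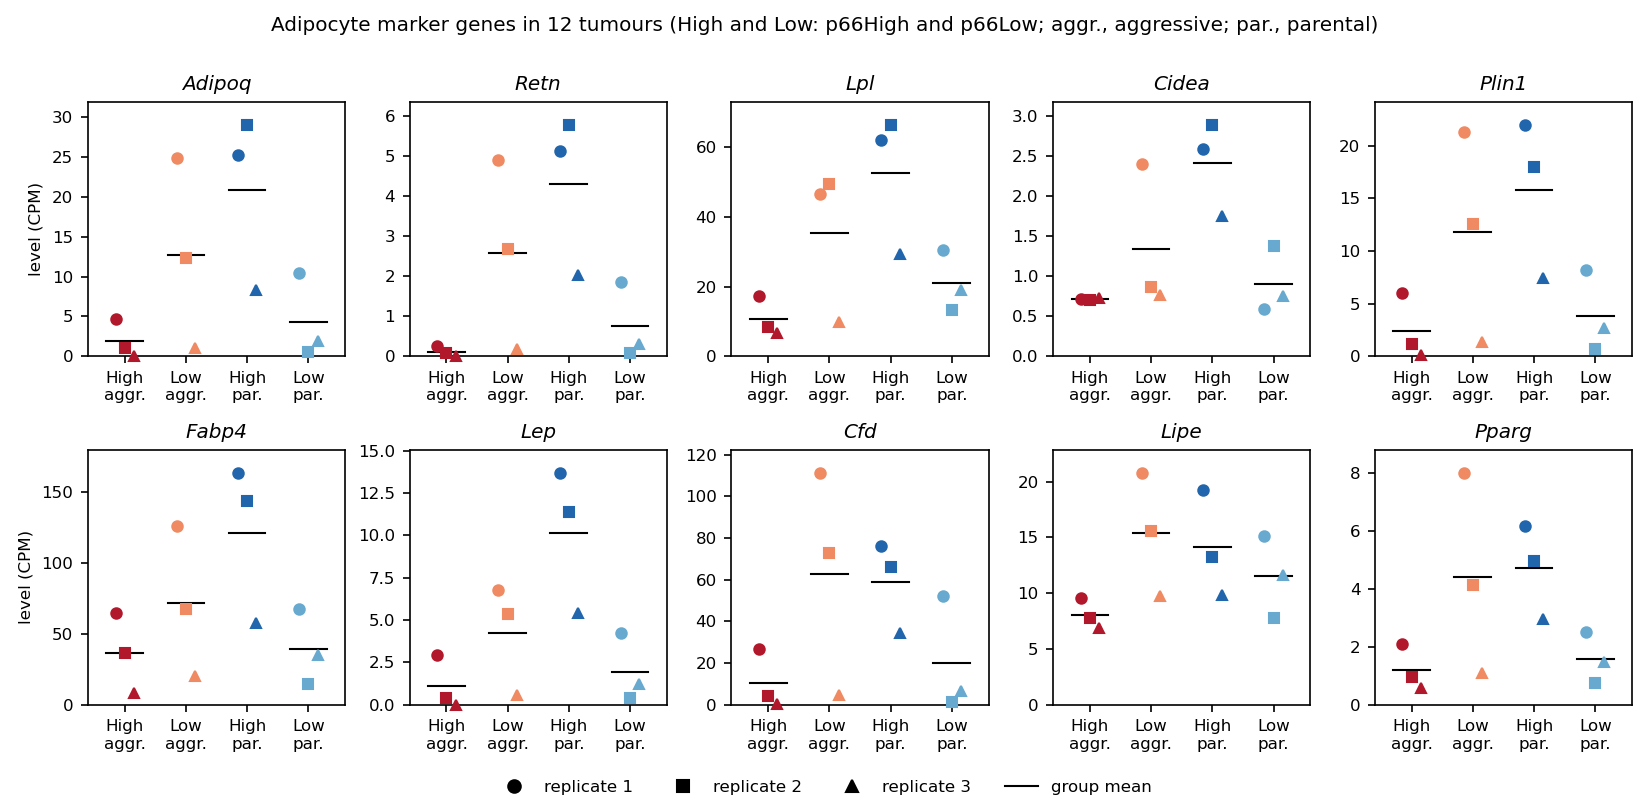
Level of each of the 10 genes in each tumour, in CPM on linear axes that start at 0, by group from p66High aggressive at the left to p66Low parental at the right; symbols are tumours and lines are group means. Adipoq was at 4.70, 1.02 and 0 CPM in p66High aggressive tumours and at 25.2, 29.0 and 8.25 CPM in p66High parental tumours, and the p66Low aggressive tumours ranged from 1.08 to 24.9 CPM.

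The genes varied far more between tumours of the same group than most genes did. The within-group SD of log2 CPM (prior count of 2) had a median of 1.47 over the 10 genes, against 0.25 over all 19370 genes tested. As a percentile of all genes tested, this SD stood at 99.9 for Cfd and Adipoq, 99.7 for Lep and Plin1, 99.3 for Retn, 97.7 for Fabp4, 94.96 for Pparg and 92.4 for Lpl. Cidea (80.8) and Lipe (73.5) were the least variable of the 10. Without the 3 libraries with lymph node genes, which leaves 3 groups with a spread, the median was 1.23 against 0.25, and the percentile fell to 89.9 for Pparg, 80.8 for Lpl, 67.5 for Lipe and 64.4 for Cidea, with the other 6 genes at 97.1 or above.

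The variation was shared. Across the 12 tumours, log2 CPM of Plin1 correlated with that of Adipoq at a Pearson r of 0.996 and a Spearman rho of 0.979, and 0.990 without p66High aggressive replicate 3 and p66Low parental replicate 2, the tumours farthest from the Adipoq median. For Lep these values were 0.989, 0.965 and 0.977, and for Cfd 0.988, 0.951 and 0.974. For Fabp4 they were 0.969, 0.965 and 0.943, for Retn 0.949, 0.979 and 0.965, for Pparg 0.944, 0.965 and 0.967, and for Lpl 0.919, 0.965 and 0.964. These 7 relations had permutation p-values of 1e-05 or 2e-05 (two-sided, 100000 resamples, 1e-05 being the smallest they can give), and at most 2.57e-05 after Benjamini-Hochberg adjustment over the 9 relations, for both r and rho.

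Lipe followed less closely, with r = 0.849 (permutation p = 0.00037, adjusted p = 0.000416), rho = 0.881 (permutation p = 0.00029, adjusted p = 0.000326) and r = 0.805 without those 2 tumours. Cidea did not pass for r, at 0.566 (permutation p = 0.0528, adjusted p = 0.0528), with rho = 0.594 (permutation p = 0.0457, adjusted p = 0.0457) and r = 0.743 without them. When each tumour was taken as its deviation from its own group mean, r to Adipoq was 0.993 for Plin1, 0.991 for Cfd, 0.988 for Lep and 0.981 for Fabp4, but 0.790 for Lipe and 0.109 for Cidea. Over the 9 tumours that remain without those 3 libraries with lymph node genes, r lay between 0.870 (Lipe, exact permutation p = 0.00226, adjusted p = 0.00254) and 0.995 (Plin1) for 8 of the genes, and was 0.532 for Cidea (exact permutation p = 0.150, adjusted p = 0.150, with rho = 0.300 and exact permutation p = 0.437). The 2 genes of each relation were read from the same libraries. The permutations ignored groups and shared title numbers, so their p-values do not separate group differences from variation within groups. The genes had been chosen with earlier results of these data known.

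**Figure D2:**
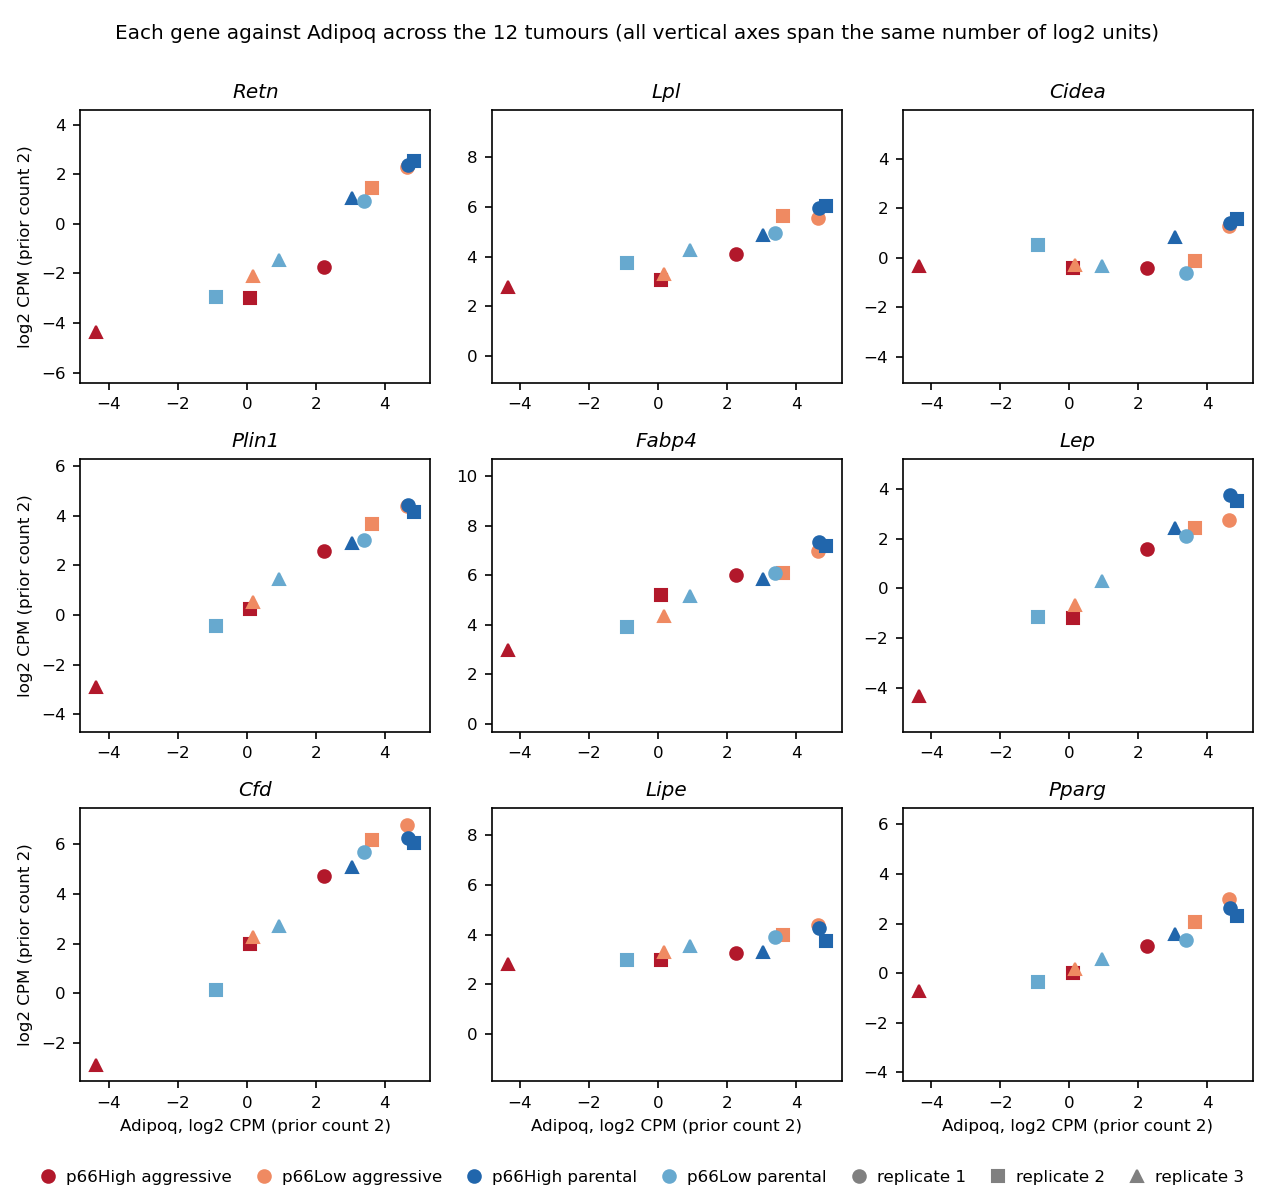
Level of each other gene against that of Adipoq across the 12 tumours, both as log2 CPM with a prior count of 2; colours are groups and symbols are replicates, and all vertical axes span the same number of log2 units. Plin1 lies on a line (r = 0.996), Lipe rises with a low slope (r = 0.849) and Cidea scatters (r = 0.566).

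The tumour with no Adipoq read, p66High aggressive replicate 3, showed which of the genes had reads without it. Retn and Lep had 0 counts there too, and Plin1 and Cfd had 2 each, while Pparg had 13, Cidea 17, Lpl 158, Lipe 160 and Fabp4 184. As a share of the level in p66High parental replicate 2, the tumour with the highest Adipoq, Lipe stood at 52.0% (95% exact Poisson interval of the count 44.3 to 60.8) and Cidea at 25.4% (14.8 to 40.7). Pparg was at 11.3% (6.02 to 19.3), Lpl at 10.3% (8.76 to 12.0) and Fabp4 at 5.52% (4.75 to 6.38). Plin1 was at 0.481% (0.0582 to 1.74) and Cfd at 0.130% (0.0158 to 0.471). The count of 0 allowed up to 0.447% for Adipoq, 1.14% for Lep and 2.24% for Retn, with 3 counts as the floor. These intervals and floors cover counting error only. That tumour was the lowest of the 12 for 9 of the genes. It also had the lowest endothelial (81.8 CPM), macrophage (267 CPM) and fibroblast and fat progenitor (842 CPM) sums of the 12 tumours. The part of these host cells in the result was not tested. Shc1 was at 774 CPM in the same tumour.

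The question of whether selection of the overexpressing cells altered these genes was addressed by p66High aggressive against p66High parental tumours. Lpl fell by 2.27 ± 0.58 on the log2 scale (SE, adjusted p = 0.0433, edgeR), Retn fell by 5.04 ± 1.34 (adjusted p = 0.0487, edgeR) and Cidea fell by 1.74 ± 0.46 (adjusted p = 0.0492, edgeR). Group means were 10.8 ± 5.61 against 52.5 ± 20.1 CPM for Lpl, 0.111 ± 0.130 against 4.30 ± 2.003 CPM for Retn and 0.717 ± 0.0143 against 2.41 ± 0.585 CPM for Cidea (SD, n = 3). These 3 of 10 compare with 5.94% of all genes tested that passed in either direction and 2.82% that passed as lower. The other 7 genes had lower fitted levels that did not pass, from -3.37 ± 1.33 for Adipoq (adjusted p = 0.162, edgeR) to -0.80 ± 0.32 for Lipe (adjusted p = 0.169, edgeR). In 9 of the 10, all but Fabp4, every p66High aggressive tumour was below every p66High parental one, against 16% of all genes tested, and 9 had an unadjusted p under 0.05, against 22.7%. The median log2 difference was -2.38 over the 10 genes and 0.00 over all genes tested. Retn rested on few reads, with 10, 2 and 0 counts in the p66High aggressive tumours.

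These 3 calls stood close to the threshold and depended on single tumours. All 3 were still called without p66Low parental replicate 2 or without p66Low aggressive replicate 3. A single gene was called without p66Low parental replicate 1 (Retn), p66Low aggressive replicate 1 (Cidea), p66Low aggressive replicate 2 (Lpl) or p66High aggressive replicate 1 (Lpl), and 0 without p66Low parental replicate 3, p66High aggressive replicate 2 or 3, or any 1 of the p66High parental tumours. The direction was lower for all 3 genes in each of these fits. Limma-voom, scaling by library size alone and summing of tumours whose titles share a number each called 0 of the 10. Without the 3 libraries with lymph node genes the median log2 difference was -2.66. That setting drops p66High parental replicate 3, whose summed level was the lowest of its group (159 CPM), so it is no check of stability.

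Selection of the p66Low cells showed no call. Of the 10 genes, 0 passed (edgeR, against 16.6% of all genes tested), 0 had an unadjusted p under 0.05 (against 30.9%), and DESeq2 and limma-voom also called 0. The log2 differences were positive for all 10, with a median of 1.26, and the groups overlapped for all 10, while they did not overlap for 32.8% of all genes tested. For Adipoq the difference was 1.54 ± 1.24 (SE, adjusted p = 0.446, edgeR), for Retn 1.69 ± 1.08 (adjusted p = 0.327) and for Pparg 1.44 ± 0.68 (adjusted p = 0.175). The highest levels of the p66Low aggressive group were in replicates 1 and 2, which also held the lymph node genes; the part of those genes was not tested. Without the 3 libraries with those genes, p66Low aggressive is replicate 3 alone and its lone value is assumed to vary as the other groups do. The difference then was negative for all 10 genes, at -1.997 for Adipoq, -2.05 for Retn and -0.25 for Lipe.

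The change with selection differed between the p66 levels for 4 genes. The difference of the 2 log2 changes was -6.73 ± 1.72 for Retn (SE, adjusted p = 0.0280, edgeR), -3.01 ± 0.80 for Lpl (adjusted p = 0.0332), -3.38 ± 0.97 for Pparg (adjusted p = 0.0436) and -2.26 ± 0.65 for Cidea (adjusted p = 0.0439). These 4 of 10 compare with 12.4% of all genes tested that passed and 7.99% that passed in the negative direction. The other 6 were negative too, at -4.91 ± 1.81 for Adipoq (adjusted p = 0.0998, edgeR) and -1.21 ± 0.45 for Lipe (adjusted p = 0.106, edgeR), and did not pass. Without the 3 libraries with lymph node genes, 0 passed, and the median over the 10 was -1.55 instead of -3.75. Limma-voom also called 0, and so did the fit in which tumours that share a title number (replicates 1 and 2 of both p66High groups) were summed, with a median of -3.80. Leaving out 1 tumour gave 0 calls without p66High aggressive replicate 2 or 3, p66Low aggressive replicate 1 or 2, p66High parental replicate 1 or 2, or p66Low parental replicate 3. It gave 2 calls without p66High parental replicate 3 or p66Low parental replicate 2, and 8 without p66Low aggressive replicate 3.

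Between p66 levels in aggressive tumours, p66High against p66Low, Retn fell by 4.26 ± 1.33 on the log2 scale (SE, adjusted p = 0.0409, edgeR), although the groups overlapped. This 1 of 10 compares with 21% of all genes tested that passed and 12.1% that passed as lower, so the share of the 10 genes was not above the background. Lpl was at -1.69 ± 0.58 (adjusted p = 0.0579), Lipe at -0.92 ± 0.32 (adjusted p = 0.0663), Pparg at -1.81 ± 0.69 (adjusted p = 0.0879) and Adipoq at -2.64 ± 1.31 (adjusted p = 0.183, edgeR). Lipe and Cidea were lower in every p66High aggressive tumour than in every p66Low aggressive one, against 18.7% of all genes tested. Limma-voom and summed tumours each called 0. A fit of only the 6 tumours compared also called 0, but it tested 9 of the 10 genes. Retn was not among them, so that fit cannot speak to its call. The Retn call was lost without any 1 of the p66High aggressive tumours, p66Low aggressive replicate 1 or 2, or p66High parental replicate 1 or 2, and without p66Low aggressive replicate 3 the count was 4. Against p66Low aggressive replicate 3 alone, without the 3 libraries with lymph node genes, the log2 difference was positive for Adipoq (0.90), Lep (1.06) and Cfd (1.15).

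Between p66 levels in parental tumours, 0 of the 10 genes passed (edgeR, against 8.08% of all genes tested), and 4 had an unadjusted p under 0.05 (Cidea, Lpl, Pparg and Retn, against 22.9%). DESeq2 called 1, Cidea. All 10 differences were positive, with a median of 1.60, from 0.29 for Lipe to 2.46 for Retn. Retn, Cidea, Lep and Pparg were higher in every p66High parental tumour than in every p66Low parental one, against 15.6% of all genes tested. Cidea came closest, at 1.42 ± 0.45 (SE, adjusted p = 0.0822, edgeR), and passed when p66Low parental replicate 2 or p66Low aggressive replicate 1 was left out. The comparisons share groups, so their values for a gene are not independent. Averaged over p66 level, selection passed for 0 of the 10 (edgeR, 10.8% of all genes tested) with 0 at an unadjusted p under 0.05 (26.9%) and a median log2 difference of -0.57. That median was -2.03 without the 3 libraries with lymph node genes, which leaves p66Low aggressive replicate 3 alone in its group. The libraries dropped were the highest of the p66Low aggressive group in summed level (372 and 243 CPM) and the lowest of the p66High parental group (159 CPM). A lower median thus follows from which tumours were dropped. Averaged over selection, p66 level passed for 0 (15.6%), with 0 at an unadjusted p under 0.05 (29.4%) and a median of -0.16. There the median was 1.28 without the 3 libraries, which leaves p66Low aggressive replicate 3 alone in its group. DESeq2 called 0 in both averaged comparisons of the 12 tumours.

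**Figure D3:**
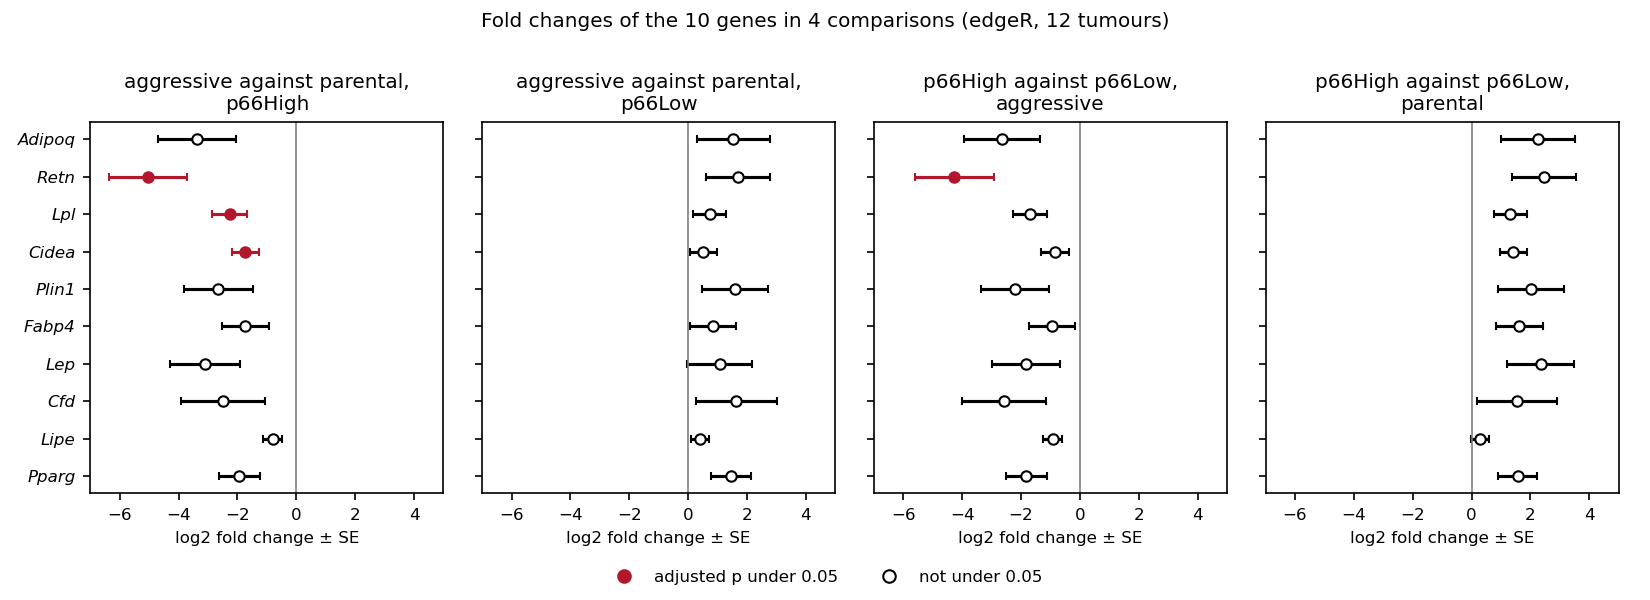
Log2 fold change of each gene with its SE in the 4 comparisons of pairs of groups, from the edgeR fit to the 12 tumours; filled red points have an adjusted p under 0.05. Filled points are Retn, Lpl and Cidea in p66High aggressive against p66High parental tumours and Retn in p66High aggressive against p66Low aggressive tumours.

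Few other genes of white fat passed. Of all genes tested, 5.94% passed in p66High selection, 16.6% in p66Low selection, 21% between the aggressive groups and 8.08% between the parental groups. Counts in this list and the lists below are to be read against these shares. Of 13 further white adipocyte genes tested, 1 passed in p66High selection: Adig (adipogenin), which fell by 1.89 ± 0.42 on the log2 scale (SE, adjusted p = 0.0238, edgeR). The median over the 13 was -1.89 in p66High selection and 1.06 in p66Low selection, in which 0 passed (edgeR). Adig was at 2.54, 2.20 and 0.906 CPM in p66High aggressive, 6.51, 6.58 and 7.31 CPM in p66Low aggressive, 8.34, 8.55 and 4.36 CPM in p66High parental and 4.70, 4.26 and 1.85 CPM in p66Low parental tumours, so its p66High aggressive tumours lay below all p66Low aggressive and all p66High parental tumours. It also fell in p66High against p66Low aggressive tumours (-1.84 ± 0.42, adjusted p = 0.0102, edgeR). Without the 3 libraries with lymph node genes Adig was still called in p66High selection (-2.15) but not between the aggressive groups (-1.92), and the median of the list in p66Low selection was -1.08. The most abundant genes of that list, Ghr (growth hormone receptor) and Fabp5, did not pass in any comparison of 2 groups and were at 86.0, 87.5 and 91.0 against 115, 97.7 and 89.0 CPM for Ghr and 70.6, 76.6 and 105 against 62.2, 69.4 and 65.1 CPM for Fabp5 in p66High aggressive against p66High parental tumours.

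Of 9 genes of fatty acid synthesis, which tumour cells also use, Srebf1 and Thrsp fell with selection of both lines. In p66High selection 4 of 9 passed as lower and 0 as higher: Scd1, a fatty acid desaturase, at -2.70 ± 0.54 (adjusted p = 0.0154, edgeR), Thrsp, a promoter of lipogenesis, at -1.91 ± 0.22 (adjusted p = 0.000957), Srebf1, the transcription factor of lipogenic genes, at -1.10 ± 0.17 (adjusted p = 0.00443), and Acaca, acetyl-CoA carboxylase, at -0.77 ± 0.14 (adjusted p = 0.0100). In p66Low selection 3 of 9 passed as lower: Srebf1 (-1.36 ± 0.17, adjusted p = 0.000858, edgeR), Thrsp (-0.69 ± 0.21, adjusted p = 0.0459) and Fasn, fatty acid synthase (-0.47 ± 0.14, adjusted p = 0.0366). Scd1 was at 213, 133 and 204 CPM in p66High aggressive and 1436, 1190 and 947 CPM in p66High parental tumours. Without the 3 libraries with lymph node genes the 4 genes of p66High selection were still called, and of the 3 in p66Low selection only Srebf1 was, with Thrsp at -0.50 and Fasn at -0.70. The log2 levels of these genes had a median r of 0.38 to the mean profile of the 10 genes, against 0.91 for the white adipocyte list and -0.04 for all other genes tested, as a description across 12 tumours. Across the 9 tumours that remain without the 3 libraries with lymph node genes these medians were 0.60, 0.89 and 0.00.

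Among 10 adipogenic regulators, 2 passed as lower in p66High selection. Cebpa, the C/EBP factor of mature adipocytes, fell, at -1.01 ± 0.15 (log2, adjusted p = 0.00302, edgeR) and Rxra, the partner of PPAR gamma, fell by 0.62 ± 0.14 (adjusted p = 0.0215). Cebpa was at 32.6, 32.8 and 24.4 CPM in p66High aggressive, 44.4, 42.0 and 32.7 CPM in p66Low aggressive, 58.6, 68.1 and 54.5 CPM in p66High parental and 30.3, 34.7 and 31.5 CPM in p66Low parental tumours. It was still at 24.4 CPM in the tumour without Adipoq reads. In p66High against p66Low parental tumours 2 of the 10 regulators passed, both as higher: Cebpa (0.91 ± 0.15, adjusted p = 0.00349, edgeR) and Nr1h3, the liver X receptor alpha (1.18 ± 0.27, adjusted p = 0.0205). In p66Low selection 2 rose, Klf15, a factor of late adipocyte differentiation (2.75 ± 0.56, adjusted p = 0.00800, edgeR), and Nr1h3 (1.23 ± 0.27, adjusted p = 0.0111), and Cebpb, a factor of early differentiation, fell by 0.44 ± 0.12 (adjusted p = 0.0296). None of these 3 calls of p66Low selection was made without the 3 libraries with lymph node genes (1.99 for Klf15, 0.57 for Nr1h3 and -0.23 for Cebpb). The calls of Cebpa and Rxra in p66High selection and of Cebpa and Nr1h3 between parental groups were.

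Of 13 lipid droplet and lipolysis genes, 2 passed as lower in p66High selection: Fitm2, which helps droplets form, at -0.70 ± 0.14 (adjusted p = 0.0154, edgeR), and Abhd5, a co-activator of triglyceride lipase, at -0.55 ± 0.14 (adjusted p = 0.0395). Fitm2 also fell in p66Low selection (-1.04 ± 0.14, adjusted p = 0.00121, edgeR). In p66High against p66Low aggressive tumours Pde3b, which damps lipolysis, fell by 1.498 ± 0.35 (adjusted p = 0.0105, edgeR) and Mgll, monoglyceride lipase, rose by 0.89 ± 0.21 (adjusted p = 0.0107). Of 14 genes of triglyceride assembly and uptake, Lpin1, a phosphatase of triglyceride synthesis, rose in p66High selection (0.78 ± 0.19, adjusted p = 0.0364, edgeR) and p66Low selection (0.72 ± 0.19, adjusted p = 0.0251), while Agpat2, an acyltransferase needed for fat storage, fell in p66High selection (-0.70 ± 0.16, adjusted p = 0.0262). Mgll, Lpin1, Agpat2 and Fitm2 in p66Low selection were still called without the 3 libraries with lymph node genes. In p66High selection Fitm2 (-0.63) and Abhd5 (-0.58) then missed the threshold, and Pde3b was at -0.53 and not called.

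Ucp1, the heat-producing protein that defines brown fat, was between 0 and 0.130 CPM in all 12 tumours and was not tested. Of the 7 of 12 listed genes that could be tested, Ppargc1a rose in p66High against p66Low tumours, both aggressive (1.16 ± 0.21, adjusted p = 0.00283, edgeR) and parental (0.73 ± 0.20, adjusted p = 0.0482), and Cox8b fell in the aggressive pair (-2.16 ± 0.69, adjusted p = 0.0436). In the aggressive pair 2 of the 7 passed as lower and 1 as higher, and the log2 differences of the 7 ran from -4.36 to 1.16. Tmem26, a beige marker, rose in p66Low selection (3.51 ± 0.85, adjusted p = 0.0171, edgeR). Of the 8 hormone receptors, Adipor1, a receptor for adiponectin, rose in p66High against p66Low aggressive tumours (0.67 ± 0.12, adjusted p = 0.00265, edgeR). None of these calls passed without the 3 libraries with lymph node genes. Ppargc1a was then at 0.98 between the aggressive and 0.67 between the parental groups, Cox8b at -2.20, Adipor1 at 0.45 and Tmem26 at 1.56.

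Markers of other host cells also differed between tumours. Endothelial genes (10 listed) summed to 150, 161 and 81.8 CPM in p66High aggressive, 195, 226 and 104 CPM in p66Low aggressive, 232, 201 and 204 CPM in p66High parental and 150, 160 and 146 CPM in p66Low parental tumours. Each p66High aggressive tumour was below each p66High parental one, and 0 of the 10 genes passed in any comparison of 2 groups (edgeR). In p66High selection 0 of the 10 had a positive log2 difference, and the median was -0.67. An unadjusted p under 0.05 was reached there by 6 of them (edgeR), against 22.7% of all genes tested. Macrophage genes (10 in the table) summed to 501, 575 and 267 CPM in p66High aggressive, 1004, 1203 and 646 CPM in p66Low aggressive, 666, 742 and 556 CPM in p66High parental and 530, 436 and 487 CPM in p66Low parental tumours. The 2 highest sums were in p66Low aggressive replicates 1 and 2. Of the 10 genes, 6 rose in p66Low selection and 7 fell in p66High against p66Low aggressive tumours, against 16.6% and 21% of all genes tested that passed. C1qc was among them in both (0.97 ± 0.17, adjusted p = 0.00429, and -0.85 ± 0.17, adjusted p = 0.00566, edgeR). Without the 3 libraries with lymph node genes, these counts were 2 and 2, C1qc among them in both, and 1 endothelial gene was called, as lower in p66High selection. No macrophage or endothelial gene was at 0 in any tumour, and their part in the levels of Lpl and Fabp4 was not tested.

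Fibroblast and fat progenitor genes (10 listed) summed to 1990, 2426 and 842 CPM in p66High aggressive, 3058, 4708 and 1243 CPM in p66Low aggressive, 2844, 2923 and 1909 CPM in p66High parental and 1843, 1504 and 2093 CPM in p66Low parental tumours. The progenitor markers Dpp4 (-3.71 ± 0.73, adjusted p = 0.00478, edgeR) and Pi16 (-2.58 ± 0.79, adjusted p = 0.0379) fell in p66High against p66Low aggressive tumours, and neither was called without the 3 libraries with lymph node genes (-3.38 and -0.78). Of 9 normal mammary and keratinocyte genes tested, 4 passed as lower in p66High selection and 2 in p66Low selection (edgeR). The 10 listed genes together did not fall in p66High selection. Their mean sum was 1557 CPM in p66High aggressive and 1424 CPM in p66High parental tumours. The milk protein gene Wap, made by mammary epithelium like Cidea in lactation, was at 0.685, 0.746 and 0.431 CPM in p66High aggressive and 4.69, 13.6 and 10.2 CPM in p66High parental tumours (-3.91 ± 0.49, adjusted p = 0.00125, edgeR). Csn2, which encodes beta-casein, also fell there (-6.95 ± 1.11, adjusted p = 0.00490, edgeR), and both were still called without the 3 libraries with lymph node genes (-3.85 for Wap and -6.20 for Csn2). The part of epithelial genes in the fall of Cidea was not tested.

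**Figure D4:**
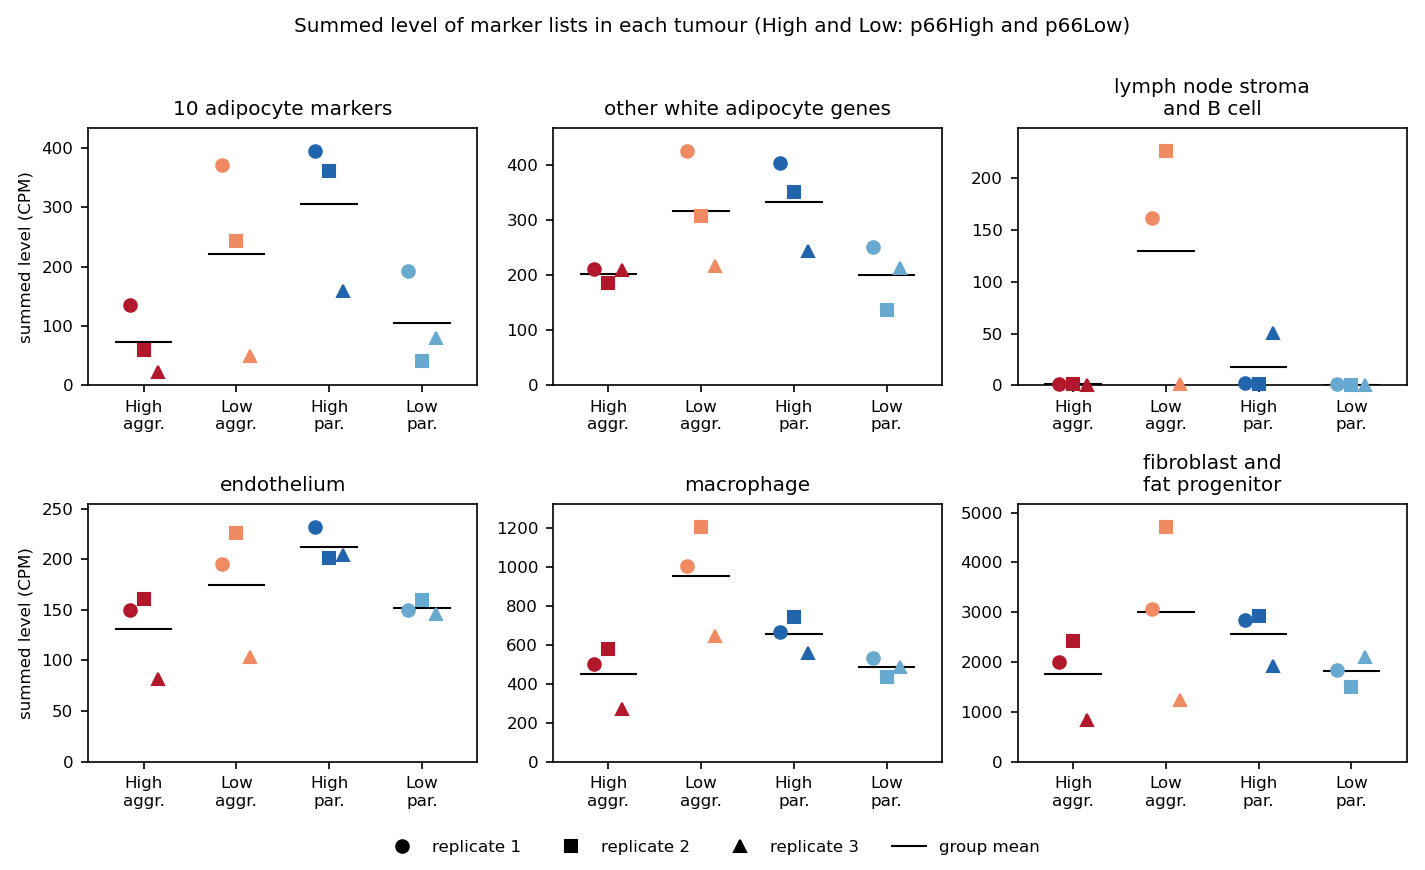
Summed level in CPM of the 10 adipocyte markers and of 5 other lists in each tumour, on linear axes that start at 0; symbols are tumours and lines are group means. The adipocyte markers spread from 23.1 to 395 CPM, and lymph node genes were high only in p66Low aggressive replicates 1 and 2 (161 and 226 CPM) and p66High parental replicate 3 (50.2 CPM).

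The genes whose pattern was most like the 10 markers were found by the Pearson r of log2 CPM to the mean of the z-scored markers across the 12 tumours, among 15543 other genes of at least 1 CPM on average. They are given as a description with no test. Mrap, a partner of melanocortin receptors that is strong in fat, stood first (r = 0.989), then Car3, a carbonic anhydrase abundant in adipocytes (0.985), Sncg (0.983), Acvr1c (0.981), Tmem45b (0.969), Plin4, a perilipin (0.967), Glb1l2 (0.966), Hp, haptoglobin (0.964), Nnmt (0.964) and Slc22a3 (0.964). Car3 was at 26.7, 5.22 and 0.518 CPM in p66High aggressive, 164, 76.8 and 3.53 CPM in p66Low aggressive, 152, 124 and 55.6 CPM in p66High parental and 62.6, 2.23 and 9.15 CPM in p66Low parental tumours. It was lowest in the tumour without Adipoq reads. These 10 genes had r between 0.953 and 0.989 without the 3 libraries with lymph node genes, and 6 of them were again among the first 10. The genes Car3, Sncg, Acvr1c and Plin4 had been placed in fat lists, and the others had not. Of all lists, the median r after that of the white adipocyte list was next highest for endothelium (0.73), macrophage (0.68) and fibroblast and fat progenitor genes (0.66). Without the 3 libraries with lymph node genes, lipid droplet and lipolysis genes came next (0.78), above endothelium (0.74), macrophage (0.64) and fibroblast and fat progenitor genes (0.63).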

How the data were processed

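RNA-seq counts of 12 bulk tumours were analysed. Per the labels' protocols, ribosomal RNA was depleted and stranded libraries were made. Per the submitters' processing notes, Trimmomatic 0.32, STAR 2.3.0e, featureCounts 1.4.4 and the mm10 build were used, and the authors deposited whole-number counts per gene, not normalized. Neither an annotation, nor a strand setting, nor the handling of multi-mapping reads was given in the sources used here, so genes that share or overlap reads are uncertain. Of 39017 gene identifiers, 37693 (96.61%) matched GENCODE M21, which gave the lengths of principal transcripts.

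Counts were fitted in R 4.3.3 with edgeR 4.0.16 (filterByExpr, 19370 genes; TMM; quasi-likelihood F-test; 4 groups of 3 tumours in 1 model, 8 residual degrees of freedom). The Benjamini-Hochberg adjustment ran over all tested genes, with 0.05 as threshold. SE was taken as |log2 fold change| divided by the square root of F. Other settings tried were RLE and library size scaling, limma-voom (limma 3.58.1), DESeq2 1.42.0, other filters, fits of the 6 tumours compared alone, tumours summed where titles share a number, and each tumour left out. Log2 CPM used a prior count of 2. The fit was also run on simulated counts, with the outcome not given here. Those counts were drawn for each gene independently, so they do not bear on genes that vary together.

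The 10 genes, the other lists and the tests were chosen with earlier results of these data known. Of each other list, the rule named genes that passed in a comparison of 2 groups, at most 4 with the smallest p. It also named the 2 most abundant genes of each list. Not every gene that it named is given here, Krt8 and Krt18 among those left out. The nerve and smooth muscle list is not described. Ucp1 and Nr1h3 are named outside the rule and were chosen after their values were seen. Where a symbol had more than 1 row, the row with more counts was used. What the number and the letter L or R in the titles mean, and whether each tumour had its own mouse, is not in the labels, so a p-value covers only the spread among these samples. No pair of replicates agreed within sampling noise (lowest chi-square per degree of freedom 20.6).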

Additional observations from a re-analysis of the deposited data

Results flagged for a closer look

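The change with selection differed between p66High and p66Low cells for 4 of the 10 genes, by a test of the difference itself (edgeR interaction over 12 tumours, adjusted over all genes), against 12.4% of all genes tested that passed and 7.99% that passed in the negative direction. The count was 0 by limma-voom, with tumours that share a title number summed, without the 3 libraries with lymph node genes and in 7 of the 12 fits that left out 1 tumour. The difference of log2 changes was -6.73 for Retn (adjusted p = 0.0280), -3.01 for Lpl (adjusted p = 0.0332), -3.38 for Pparg (adjusted p = 0.0436) and -2.26 for Cidea (adjusted p = 0.0439). For Lpl the mean level was 10.8 CPM in p66High aggressive against 52.5 CPM in p66High parental tumours, and 35.2 CPM in p66Low aggressive against 20.98 CPM in p66Low parental tumours. The p66Low aggressive mean includes the 2 tumours with lymph node genes. What the difference rests on was not tested further than by leaving tumours out.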

How the results depend on the processing

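The calls stood close to the threshold, and the number of the 10 genes called moved with the setting. In p66High selection, 3 were called, against 0 by limma-voom, by library size alone and with summed tumours. For the interaction, 4 were called, against 0 by limma-voom, with summed tumours and without the 3 libraries with lymph node genes (a setting chosen after seeing the data). In p66High against p66Low aggressive tumours, 1 was called, against 4 by DESeq2, 2 with no filter on low counts, and 0 by limma-voom, with only the 6 tumours compared, with summed tumours and without the 3 libraries. In p66High against p66Low parental tumours, 0 were called, against 1 by DESeq2 and without the 3 libraries. Selection averaged over p66 level gave 0, and 1 without the 3 libraries. Leaving out 1 tumour gave 0 to 3 calls in p66High selection, 0 to 8 for the interaction, 0 to 4 in p66High against p66Low aggressive tumours, 0 to 1 in p66High against p66Low parental tumours and 0 to 1 in p66Low selection. Apart from the numbers of samples and genes each setting uses, the cause was not tested.

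Directions turned round almost only without the 3 libraries, which leaves p66Low aggressive replicate 3 alone. In p66High against p66Low aggressive tumours the log2 difference was then 0.90 for Adipoq, 0.16 for Lpl, 0.85 for Plin1, 0.85 for Fabp4, 1.06 for Lep, 1.15 for Cfd and 0.19 for Pparg. In p66Low selection it was -1.997 for Adipoq, -2.05 for Retn, -1.10 for Lpl, -0.21 for Cidea, -1.48 for Plin1, -0.95 for Fabp4, -1.80 for Lep, -2.09 for Cfd, -0.25 for Lipe and -0.55 for Pparg. The exception was Cidea in p66Low selection, at -0.11 without p66Low aggressive replicate 1 and at most 0.95, without p66Low parental replicate 2. The mean summed level of p66Low aggressive tumours was 48.6 CPM without the 3 libraries, against 222 CPM. Leaving out 1 tumour gave means of 41.7 to 97.6 CPM in p66High aggressive, 145 to 309 CPM in p66Low aggressive, 260 to 379 CPM in p66High parental and 60.8 to 137 CPM in p66Low parental tumours. No paired analysis was possible because the groups compared share no number in their titles. Retn, Lep and Adipoq reached a count of 0 in 1 tumour, p66High aggressive replicate 3 (24.7 M counts), where Plin1 and Cfd had 2 each. The smallest library, p66Low aggressive replicate 1 (17.4 M counts), held 94 counts of Retn, 130 of Lep and 477 of Adipoq. The part of depth was not tested.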
